A study of Arabidopsis thaliana with 12 samples.

Results

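The response of Arabidopsis thaliana to iron deficiency was compared between rosettes and roots. For each gene, the log2(RPKM + 0.5) change from control to Fe-deficient plants was formed within an organ, and the change in roots was subtracted from the change in rosettes. RPKM is read density, scaled to transcript length and to the size of the library. Of 33607 genes, 17680 were tested, those whose mean reached 1 RPKM in rosettes and in roots alike. The mean was taken over control and Fe-deficient libraries together, so a gene low in either group could pass through the other. All plants were wild type Col-0, grown in vitro under continuous light on complete ES medium with sucrose for 10 days. They then went to fresh complete medium (control) or to ES medium lacking iron and with 100 µM ferrozine, which binds ferrous iron, and were collected after 72 h. Whole rosettes and roots gave 12 RNA-seq libraries of polyadenylated RNA, 3 in each of 4 groups. The labels do not say whether replicates came from separate plates or how many plants each holds, so p-values measure the spread between these libraries, which may be technical.

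A plant short of iron takes up more from the medium through its roots and spares what its leaves hold. Roots acidify the medium with proton pumps, secrete coumarins that mobilise ferric iron, reduce it with the reductase FRO2 and import ferrous iron through IRT1, under control of the transcription factor FIT (FRU in the reference annotation). In both organs the bHLH subgroup Ib transcription factors, the transcription factor PYE and the E3 ligase BTS take part in relaying the iron state. In leaves, most iron sits in chloroplasts, in photosystem I, ferredoxin, haem proteins and the storage protein ferritin.

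The 2 organs were scaled separately in the deposited tables, so RPKM levels are compared only within an organ. Read depth is unknown. Rosette libraries had 18879 to 18947 genes at 1 RPKM or more, root libraries 19790 to 19843. Of 8 rosette markers, all were above 1 RPKM in rosettes, and 6 were in roots, where MYB0 and FMA lay under 0.1 RPKM. Of 8 root markers, all were above 1 RPKM in roots and 3 in rosettes. RNA integrity scores in the labels were lower for rosettes than for roots. The means nearest the filter were those of AT2G35585 and AT3G29633, each at 1.0 RPKM in rosettes and tested, and of AT5G59660 and AT4G25780, each at 0.9983 RPKM in roots and not tested.

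The response differed between the organs for 632 genes, or 3.57% of those tested (limma, adjusted p under 0.05), with 2958 at an unadjusted p under 0.05. It was more positive in rosettes for 255 genes (1.44%) and more negative in rosettes for 377 (2.13%). Of these, 51 and 142 differed 2-fold or more. In the organs on their own, 341 genes changed in rosettes (1.93%), of which 118 rose (0.667%), and 898 changed in roots (5.08%), of which 526 rose (2.98%). The 3 Fe-deficient libraries lay wholly above or below the 3 controls for 21.4% of tested genes in rosettes and 25.9% in roots, the background for each statement on overlap. Of the 632, 319 were called changed in roots only, 86 in rosettes only, 69 in both and 158 in neither. The median difference over all genes was 0.02 on the log2 scale and its median standard error 0.143. Without root control replicate 2, the count of genes more positive in rosettes fell to 154. The count of changed rosette genes was 152, 154 and 180 when control replicate 1, 2 or 3 was dropped, and 190 and 180 when Fe-deficient replicate 2 or 3 was. The count of changed root genes was 378 and 543 when control replicate 2 or 3 was dropped, and 420, 421 and 518 for Fe-deficient replicates 1, 2 and 3.

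The called genes were sorted by the organ that carried the change. There were 64 genes (0.362% of those tested) higher in Fe-deficient rosettes with a more positive response there, 86 (0.486%) lower in rosettes, 233 (1.32%) higher in roots and 99 (0.56%) lower in roots. Some genes changed in both organs in 1 direction. Of 49 genes higher in both, 25 rose more in rosettes and 4 rose more in roots, namely FRO2, IRT1, MYB10 and FRO3. For IRT1, at 0.0967 RPKM in control rosettes, this rests on the pseudocount of 0.5. With a pseudocount of 0.1 its difference was -0.61 and not called (adjusted p 0.45). Of 59 genes lower in both, 31 fell more in rosettes and 1, NIR1, fell more in roots. In the root classes, 225 of the 233 genes higher in roots and 94 of the 99 lower in roots had no called change in rosettes, against 35 of 64 and 51 of 86 for the rosette classes.

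**Figure D1:**
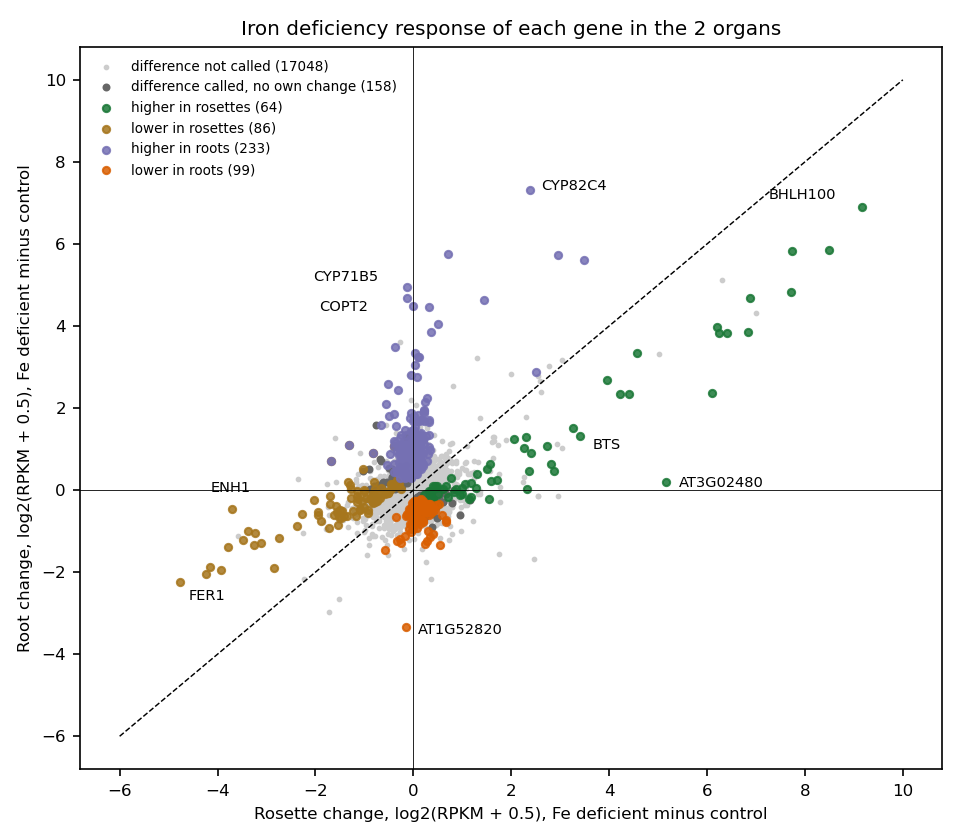
Change of each of 17680 genes under iron deficiency in rosettes (horizontal axis) and in roots (vertical axis), both on the log2(RPKM + 0.5) scale, with genes coloured by the organ that carried the called difference. The dashed line marks equal changes; FER1 and BHLH100 lie off it with changes of the same sign in both organs, and CYP71B5 and AT3G02480 lie near an axis.

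Most genes listed with the bHLH Ib factors, PYE and BTS rose in both organs, and most of these rose more in rosettes. Of the 17, 15 rose in rosettes and 16 in roots, against 0.667% and 2.98% of all genes. The difference was called as more positive in rosettes for 11, against 1.44% of all genes, and more negative for 2, against 2.13%. The median difference was 1.66. The 4 bHLH Ib genes were under 1 RPKM in every control rosette library, and AT1G74770 had a mean of 0.197 RPKM there. These genes passed the filter in rosettes only through Fe-deficient libraries, and BHLH100 did so in roots as well. Their rise was thus partly fixed by the filter, and the counts of this list are no test against the share of all genes. BHLH100 (AT2G41240) was at 0.18, 0.06 and 0.18 RPKM in control rosettes and at 403, 343 and 357 in Fe-deficient rosettes. In roots it was at 0.48, 0.42 and 0.48 RPKM and 115, 122 and 106 RPKM. The groups lay far apart in both organs, and the change was 9.17 in rosettes against 6.90 in roots, differing by 2.27 (SE 0.134, adjusted p 1.04e-06).

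bHLH38 (AT3G56970) was at 0.37, 0.48 and 0.05 RPKM in control rosettes and 319.7, 242 and 275 in Fe-deficient ones, and its neighbour bHLH39 (AT3G56980) at 0.28, 0.28 and 0.17 and 177, 146 and 147. In control roots bHLH38 was at 2.16, 1.88 and 2.76 RPKM and bHLH39 at 6.07, 2.98 and 4.34, and in Fe-deficient roots at 159.7, 159 and 158 and at 140.2, 140.0 and 127. No groups overlapped, and the differences were 2.62 (SE 0.257, adjusted p 0.000486) for bHLH38 and 2.89 (SE 0.238, adjusted p 8.14e-05) for bHLH39. BHLH101 (AT5G04150) had a difference of 2.98 (SE 0.249, adjusted p 0.000124), with 94.5, 95.2 and 88.7 RPKM in Fe-deficient rosettes and 34.2, 35.5 and 40.7 in Fe-deficient roots. Its control values were 0.07, 0.46 and 0.5 RPKM in rosettes and 2.32, 2.18 and 1.74 in roots, and no groups overlapped. With values this low, the size of the difference moved with the setting, between 2.04 and 2.95 for BHLH100, 2.14 and 3.57 for bHLH38, 2.3 and 3.89 for bHLH39 and 2.52 and 3.83 for BHLH101 over the alternatives, with the call kept in each. The transcript of bHLH38 shares a stretch of 386 identical bases with PIP5K4 on the other strand, and that of BHLH101 79 bases with GLU1; neither neighbour had a called difference.

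BTS (AT3G18290), a zinc finger E3 ligase that acts on iron-regulated bHLH factors in Arabidopsis, was at 24.7, 24.2 and 22.7 RPKM in control rosettes and 263, 256 and 254 in Fe-deficient rosettes, and at 23.9, 23.8 and 22.6 and 59.9, 56.9 and 60.6 in roots. The 3 Fe-deficient rosette libraries were several times above every control, while the Fe-deficient root libraries stood less far from theirs, and the difference was 2.09 (SE 0.0698, adjusted p 6.89e-09). The transcription factor PYE, the vacuolar nicotianamine transporter ZIF1 and the vacuolar iron exporter NRAMP4 had differences of 1.66, 1.74 and 1.02 with adjusted p of 0.000143, 2.28e-07 and 9.71e-06. ZIF1 rose from 21.1 ± 1.25 to 207 ± 2.1 RPKM in rosettes (SD, n = 3, as throughout) and from 21.2 ± 1.4 to 61.7 ± 2.79 in roots.

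Genes with no named product in the reference were among those with the largest differences. AT1G47395 was at 8.89, 15.1 and 8.89 RPKM in control rosettes and 925, 792 and 829.6 in Fe-deficient rosettes, against 10.2, 12.2 and 11.1 and 156, 163 and 178 in roots, differing by 2.42 (SE 0.222, adjusted p 0.000616). Its neighbour AT1G47400 differed by 2.22 and AT2G30766 by 1.23. AT1G47407, which the reference annotation does not hold, had 88.4, 76.8 and 77.9 RPKM in Fe-deficient rosettes and 18.16, 19.9 and 20.4 in Fe-deficient roots, and differed by 2.60 (SE 0.187, adjusted p 4.12e-06). AT2G14247, an uncharacterised gene, rose from 5.02, 5.68 and 7.69 to 478, 446 and 420.5 RPKM in rosettes, and in roots from 39.3, 37.7 and 35.3 to 195, 185 and 206, a difference of 3.73 (SE 0.16, adjusted p 4.79e-06). It is identical over 233 bases to the overlapping locus AT2G06085, so reads may be split between them.

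For the other members of the list the difference was not called or was larger in roots. The iron and copper transporter OPT3 differed by -0.23 (adjusted p 0.52) and the nicotianamine synthase NAS4 by 0.23 (adjusted p 0.486), and both rose in both organs. FRO3, a mitochondrial ferric reductase, rose slightly more in roots: 27 ± 0.638 to 155 ± 3.07 RPKM in rosettes, 14.5 ± 0.146 to 110 ± 0.187 in roots, differing by -0.39 (SE 0.0594, adjusted p 0.00221). AT1G18910, annotated as a zinc ion binding protein, was at 3.35, 3.05 and 2.96 RPKM in control rosettes and 3.37, 4 and 3.33 in Fe-deficient ones, which overlap. In roots it rose from 22.5, 23.2 and 24.8 to 78.05, 75.4 and 80.4 RPKM, a difference of -1.54 (SE 0.116, adjusted p 4.72e-05). AT1G74770, which has the same annotation, rose in both organs with a difference of -0.07 (adjusted p 0.876).

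Promoters of the genes higher in rosettes were searched for CACGTG, a palindromic G-box that bHLH factors can bind, in the 250 bases before the annotated gene start (RefSeq annotation of TAIR10.1). It was present in 18 of 62 promoters (29.0%), against 7.33% of the promoters of all genes tested and 5.39% of all promoters in the reference. The share was 11.6% for genes lower in rosettes, 5.65% for genes higher in roots and 13.1% for genes lower in roots. The shorter ACGTG, which lies inside CACGTG and was sought on both strands, was in 53.2% of promoters of genes higher in rosettes and 22.9% of all tested. GTAC, the core that the copper regulator SPL7 binds, was in 33.9% and 34.3%. No match lay in this window for bHLH39, BHLH101, PYE, ZIF1, NRAMP4, AT1G47395, AT1G47400, AT2G30766 or AT2G14247, all of the same class. The promoters of 5 genes, picked because they hold a match, show where it lies, with CACGTG in capitals. BHLH100 (chr2:17199455-17199704, minus strand), bHLH38 (chr3:21085246-21085495, minus strand) and BTS (chr3:6273716-6273965, plus strand) rose in both organs.
BHLH100: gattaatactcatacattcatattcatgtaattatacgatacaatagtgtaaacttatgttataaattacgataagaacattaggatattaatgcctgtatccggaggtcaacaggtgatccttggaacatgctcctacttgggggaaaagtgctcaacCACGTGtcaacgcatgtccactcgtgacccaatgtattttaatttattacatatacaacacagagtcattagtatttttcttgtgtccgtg
bHLH38: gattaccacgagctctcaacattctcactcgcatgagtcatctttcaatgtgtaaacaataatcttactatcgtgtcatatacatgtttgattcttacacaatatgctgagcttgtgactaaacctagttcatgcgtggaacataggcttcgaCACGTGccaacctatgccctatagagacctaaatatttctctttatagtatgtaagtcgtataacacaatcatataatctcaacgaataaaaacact
BTS: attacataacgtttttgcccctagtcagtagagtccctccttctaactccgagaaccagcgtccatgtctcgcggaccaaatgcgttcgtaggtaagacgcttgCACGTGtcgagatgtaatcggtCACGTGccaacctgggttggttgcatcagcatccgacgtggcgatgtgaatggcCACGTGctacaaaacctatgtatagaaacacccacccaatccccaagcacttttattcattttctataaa
GATA12 (chr5:9005942-9006191, minus strand) and AT3G02480 (chr3:511970-512219, plus strand) rose in rosettes with no called change in roots.
GATA12: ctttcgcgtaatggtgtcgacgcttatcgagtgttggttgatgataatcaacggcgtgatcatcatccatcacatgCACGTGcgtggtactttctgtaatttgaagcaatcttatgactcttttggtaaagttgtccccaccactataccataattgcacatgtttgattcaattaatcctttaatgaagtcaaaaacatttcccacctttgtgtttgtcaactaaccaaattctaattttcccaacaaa
AT3G02480: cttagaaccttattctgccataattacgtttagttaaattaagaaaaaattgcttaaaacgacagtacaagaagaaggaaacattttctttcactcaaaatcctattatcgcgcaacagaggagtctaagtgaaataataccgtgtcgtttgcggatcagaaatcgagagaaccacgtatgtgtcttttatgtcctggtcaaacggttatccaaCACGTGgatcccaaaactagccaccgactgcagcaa
The match began 91 bases before the gene start in BHLH100, 97 in bHLH38, 174 in GATA12 and 36 in AT3G02480. BTS held 3 matches, at 146, 124 and 70 bases. A match is a description of these letters and no evidence of binding.

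Among the rosette rises with no called root change, AT3G02480 (chr3:512220-513036, plus strand) had the largest difference at the pseudocount of 0.5. It encodes a late embryogenesis abundant family protein, a class known from seeds and dehydrated tissue. Control rosettes held 0.99, 0.11 and 0.32 RPKM and Fe-deficient rosettes 30.6, 30.2 and 36.02, while roots held 2.73, 2.34 and 2.05 in control and 2.73, 4.42 and 1.67 in Fe-deficient libraries. The rosette groups were far apart and the root groups overlapped, with a difference of 4.98 (SE 0.432, adjusted p 1.97e-05). Of 20 tested genes of abscisic acid, cold and dehydration response, it was the 1 gene higher in rosettes, against 0.667% of all genes. It passed the filter in rosettes only through Fe-deficient libraries. The median rosette change of the list was -0.01. The list held 3 genes with a more positive response in rosettes, against 1.44% of all genes, and the other two, LTI78 (0.86) and GolS2 (1.45), fell in roots.

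GATA12 (AT5G25830), a GATA zinc finger transcription factor, was at 1, 1.12 and 1.31 RPKM in control rosettes and 10.6, 12.4 and 11.4 in Fe-deficient rosettes. In roots the values were 12.4, 13.3 and 10.2 and 15.1, 20.02 and 15.5 RPKM, which did not overlap, although the root change was not called (adjusted p 0.12). The difference was 2.40 (SE 0.177, adjusted p 6.17e-06). A few further rosette responses are given here that were chosen after their values were seen. RSH2, a chloroplast enzyme of the alarmone ppGpp, rose from 12.5, 11.2 and 11.7 to 57.8, 61.97 and 64.2 RPKM in rosettes and was at 29.6, 30.1 and 36.3 and 30.4, 32.1 and 34.9 in roots, differing by 2.30 (SE 0.115, adjusted p 4.31e-07). BETA-OHASE 1, a carotenoid hydroxylase, rose from 26.6 ± 3.45 to 78.7 ± 9.01 RPKM in rosettes, with a difference of 1.78 (SE 0.185, adjusted p 8.97e-05). The glycosyltransferase family gene CDI rose in both organs, by 2.36 in rosettes and 0.47 in roots, and ORG1 by 4.40 and 2.35; their differences were 1.89 and 2.05.

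**Figure D2:**
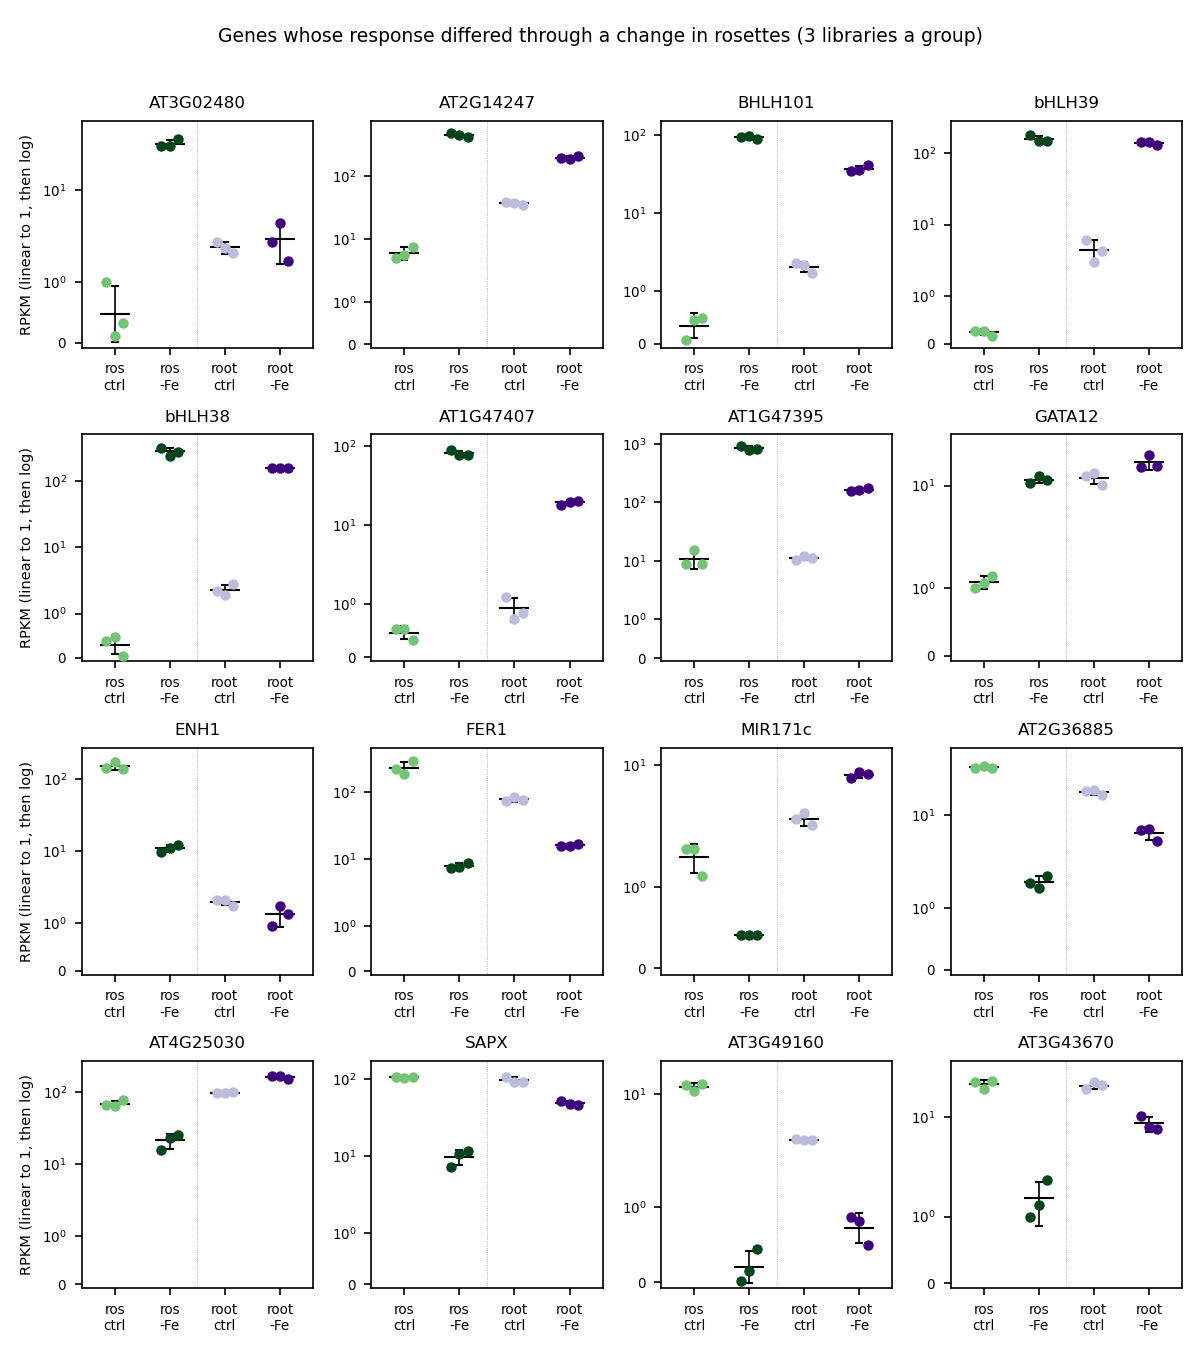
RPKM in each library for the 8 genes with the largest difference in each of the classes higher in rosettes (upper 8 panels) and lower in rosettes (lower 8), on an axis linear to 1 and logarithmic above. Points are libraries and bars the mean and SD of 3; the rosette groups (ros) are apart in every panel, and for AT3G02480 the root groups overlap.

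All 8 tested genes of the iron storage and excess list fell in roots and 7 in rosettes, against 2.1% and 1.26% of all genes. Of these, 4 differed, each with the larger fall in rosettes, against 2.13% of all genes. Ferritin FER1 (chr5:227953-230051, minus strand) was at 222, 186 and 289 RPKM in control rosettes and 7.42, 7.61 and 8.88 in Fe-deficient rosettes, and at 73.04, 83.9 and 77.3 and 15.8, 16 and 16.96 in roots. No groups overlapped, and the fall was larger in rosettes by a difference of -2.53 (SE 0.178, adjusted p 0.000112). FER4 fell from 78.2 ± 8.32 to 4.7 ± 0.963 RPKM in rosettes, and in roots from 12.3 ± 0.363 to 2.88 ± 0.527, a difference of -1.99 (SE 0.194, adjusted p 6.37e-05). FER3 and AT1G21140 differed by -0.80 and -0.95. The yellow stripe-like transporter YSL3 changed by -0.84 in rosettes and -0.87 in roots, AT1G76800 by -2.23 and -2.16, AT3G25190 by -1.15 and -1.04, and YSL2 by -0.42 and -1.01, with no difference called (adjusted p 0.957, 0.953, 0.718 and 0.286).

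ENH1 (AT5G17170), a plastid rubredoxin family protein, had the largest difference among the rosette falls. It was at 141, 169 and 135 RPKM in control rosettes and 9.64, 10.8 and 12.2 in Fe-deficient rosettes. Roots held 2.07, 2.08 and 1.74 and 0.93, 1.73 and 1.31 RPKM, a change that was not called (adjusted p 0.227), and the difference was -3.25 (SE 0.219, adjusted p 6.28e-06). A related rubredoxin-like gene, AT5G51010, chosen after its values were seen, fell from 105 ± 1.35 to 26.7 ± 0.832 RPKM in rosettes, and in roots from 6.31 ± 0.937 to 3.96 ± 0.1, a difference of -1.35 (SE 0.129, adjusted p 0.000703). FED A, the main leaf ferredoxin, fell from 1731, 1720.0 and 1698 to 587, 521 and 621 RPKM in rosettes, and its root values of 38.8, 46.8 and 41.4 and 34.5, 33.3 and 29.4 RPKM did not overlap but were not called, with a difference of -1.20 (SE 0.117, adjusted p 6.44e-05).

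Enzymes against superoxide and peroxide, many of which carry iron or haem, formed another list. Of 12 tested genes, 4 differed, all with the larger fall in rosettes, against 2.13% of all genes. The stromal ascorbate peroxidase SAPX (AT4G08390) was at 106, 103 and 106 RPKM in control rosettes and 7.27, 10.8 and 11.5 in Fe-deficient rosettes. In roots the same transcript went from 107, 92.5 and 92.5 to 51.5, 47.8 and 46.1 RPKM. The groups were apart in both organs and the difference was -2.38 (SE 0.179, adjusted p 9.63e-05). Cytosolic APX1 differed by -1.41 (SE 0.125, adjusted p 7.25e-05) and the iron superoxide dismutase FSD1 by -2.19 (SE 0.179, adjusted p 0.000139); FSD1 fell from 268 ± 39.4 to 13.8 ± 2.34 RPKM in rosettes, and in roots from 80.6 ± 6.96 to 19.1 ± 1.16. CAT3, a catalase, fell from 1385, 1509.9 and 1861 to 331, 547 and 629.5 RPKM in rosettes, and its root groups, at 205, 242 and 249 and 222, 209 and 195, overlapped. Its difference of -1.55 (SE 0.267, adjusted p 0.0206) was lost without any 1 rosette control replicate (adjusted p 0.0588, 0.0716 and 0.0778), without Fe-deficient replicate 2 (0.0583) and with no filter (0.11).

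Of 22 tested genes of tetrapyrrole synthesis and chlorophyll breakdown, 3 differed, against 3.57% of all genes, and the median difference was 0.08. HEMA1, the glutamyl-tRNA reductase that starts the pathway, was at 292, 259.8 and 254 RPKM in control and 32.4, 27.6 and 32.6 in Fe-deficient rosettes, and at 47.5, 55.2 and 61.9 and 22.1, 19.8 and 24.9 in roots, differing by -1.82 (SE 0.148, adjusted p 1.61e-05). NYC1, a chlorophyll b reductase, fell from 84 ± 10.7 to 8.77 ± 3.23 RPKM in rosettes, and in roots from 5.93 ± 0.443 to 2.61 ± 0.422, a difference of -2.19 (SE 0.297, adjusted p 0.00361). CRD1 had the more positive response in rosettes. Among 17 genes of iron-sulfur cluster assembly, 1 was called, a share near the 3.57% of all genes. It was ABCI8, a plastid scaffold component, with 119.7, 123 and 120.4 RPKM in control and 15.3, 17.3 and 20.6 in Fe-deficient rosettes and a difference of -1.58 (SE 0.123, adjusted p 3.47e-05).

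The other rosette falls with the largest differences belong to no list. AT2G36885, annotated as a translation initiation factor, went from 32.3, 33.8 and 32.6 to 1.88, 1.66 and 2.21 RPKM in rosettes, and in roots from 18.1, 18.7 and 16.4 to 6.96, 7.21 and 5.32, a difference of -2.41 (SE 0.157, adjusted p 2e-06). AT3G43670, a copper amine oxidase family gene, fell from 21.5 ± 1.98 to 1.54 ± 0.685 RPKM in rosettes, and in roots from 20.7 ± 1.58 to 8.65 ± 1.48, a difference of -2.25. The pyruvate kinase family gene AT3G49160 differed by -2.29. It fell to 0.02, 0.15 and 0.44 RPKM in Fe-deficient rosettes and shares 291 identical bases with the overlapping locus AT3G49155.

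Genes higher in roots formed the most numerous of the 4 classes, with 233 members. The 8 with the largest difference comprised 2 cytochrome P450 genes, a glutathione transferase, 2 metal transporters, a folate enzyme and 2 genes known by family alone. CYP71B5 (chr3:19755689-19757613, plus strand), a cytochrome P450, was at 0.33, 0.11 and 0.45 RPKM in control roots and 27.3, 21.2 and 23.05 in Fe-deficient roots. In rosettes it stood at 15.6, 12.9 and 16.4 RPKM and 13.97, 13.6 and 12.97, with overlapping groups. The difference was -5.08 (SE 0.212, adjusted p 4.37e-07), and between -6.15 and -4.39 over the alternatives.

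GSTL1 (AT5G02780), a lambda class glutathione transferase, rose from 5.72, 7.53 and 5.8 to 372, 359 and 377 RPKM in roots and was at 0.75, 1.22 and 1.42 and 0.96, 4.83 and 1.85 RPKM in rosettes, a difference of -5.05 (SE 0.484, adjusted p 0.00216). Its tandem neighbour GSTL3, which starts just past the end of GSTL1 and was chosen after its values were seen, rose in roots by 0.56 and differed by -0.48 (SE 0.0738, adjusted p 0.00215). GSTL2 on another chromosome differed by -0.09 (adjusted p 0.803). Of the Fe-deficient rosette libraries, replicate 2 held the most GSTL1, at 4.83 RPKM.

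Copper uptake showed an organ difference in 1 of its transporters in each direction. COPT2 (AT3G46900), a plasma membrane copper transporter, was at 0.77, 0.3 and 0.33 RPKM in control roots and 27.2, 25.5 and 19.2 in Fe-deficient roots. Rosettes held 1.86, 3.03 and 2.38 RPKM and 2.38, 2.18 and 1.86, which overlap, and the difference was -4.81 (SE 0.278, adjusted p 5.59e-07). COPT1 was not called in either organ but differed by 0.61 (SE 0.115, adjusted p 0.0121), with 42.3 ± 1.49 to 47.6 ± 3.34 RPKM in rosettes and 5.24 ± 0.0866 to 3.73 ± 0.314 in roots. COPT5 differed by -0.19 (adjusted p 0.49). Of the 12 tested genes of copper economy, 4 differed, against 3.57% of all genes, and the median difference was 0.11. COPT1 and DRT112 were more positive in rosettes, and COPT2 and FSD1 more negative. FSD1 is the iron superoxide dismutase counted above among the enzymes against superoxide and peroxide. The regulator SPL7 differed by 0.07 (adjusted p 0.761), and the copper/zinc superoxide dismutases CSD1 and CSD2 by -0.06 and 0.21, neither called.

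Genes of coumarin synthesis and secretion rose in roots. Of 14 genes tested, 12 had the more positive response in roots, against 2.13% of all genes, and the median difference was -1.57. In roots 13 rose and in rosettes 1, against 2.98% and 0.667% of all genes. At the entry into the phenylpropanoid pathway, PAL2 went from 103, 108 and 110.1 to 421, 401 and 398 RPKM in roots and was at 75.4, 74.3 and 69.7 and 88.4, 77.97 and 89.1 RPKM in rosettes, a difference of -1.70 (SE 0.0829, adjusted p 2.4e-07). PAL1, 4CL1, 4CL2, HCT, CYP98A3 and C4H of the shared pathway differed by -1.05, -1.47, -1.68, -0.91, -0.68 and -0.53. All 6 rose in roots and none was called in rosettes.

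AT3G13610, a 2-oxoglutarate and Fe(II)-dependent oxygenase, rose in roots from 83.4, 83.8 and 89.6 to 802, 783 and 816 RPKM. Rosettes held 1.98, 1.19 and 1.22 and 1.79, 7.98 and 5.13 RPKM, and the difference of -1.91 was not called (adjusted p 0.112). CYP82C4 (AT4G31940), the hydroxylase that makes sideretin, was at 5.43, 5.64 and 4.6 RPKM in control roots and 896, 927 and 896 in Fe-deficient roots. In rosettes it was at 0.18, 0.08 and 0.03 RPKM and 0.95, 6.57 and 2.43, where the same library, Fe-deficient replicate 2, was the highest as for GSTL1 and AT3G13610. The difference of -4.92 (SE 0.554, adjusted p 0.00578) lost its call with a pseudocount of 0.1 (-3.62, adjusted p 0.0512) and with no filter (adjusted p 0.0502).

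BGLU42, a glucosidase that frees coumarins for secretion, was at 14.4, 11.9 and 11.6 RPKM in control and 141, 128 and 127 in Fe-deficient roots, with 15.04, 15.2 and 15.2 and 14.04, 16.2 and 16.2 RPKM in rosettes. The rosette libraries lay within a narrow range and overlapped, and the difference was -3.32 (SE 0.117, adjusted p 9.61e-09). The exporter ABCG37 and the transcription factor MYB10 differed by -1.96 (adjusted p 0.0354) and -3.20 (adjusted p 1.9e-05). MYB10 rose in both organs, from 1.94 ± 0.633 to 5.95 ± 0.323 RPKM in rosettes, and in roots from 2.14 ± 0.59 to 64.8 ± 6.85. Its relative MYB72 and the oxygenase AT3G12900 were not tested because their mean in rosettes was under 1 RPKM. In roots MYB72 went from 0.16 ± 0.0964 to 85.1 ± 15.3 RPKM and AT3G12900 from 0.437 ± 0.085 to 208 ± 43.5.

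All 5 tested genes of root iron uptake had the more positive response in roots, against 2.13% of all genes, with a median difference of -2.14. IRT1 (AT4G19690), the root iron importer, was at 15.3, 18.4 and 18.3 RPKM in control roots and 836, 890.3 and 890.3 in Fe-deficient roots. It also rose in rosettes, from 0.16, 0.03 and 0.1 to 4.47, 8.31 and 6.12 RPKM, with no overlap. Fe-deficient replicate 2 was the highest rosette library, as for CYP82C4, GSTL1 and AT3G13610, while for MYB10 it was the lowest Fe-deficient one, at 5.58 RPKM. The cause of this shared order was not tested. The IRT1 difference of -2.14 (SE 0.237, adjusted p 0.00223) fell to -0.61 with a pseudocount of 0.1 in place of 0.5 and was then not called (adjusted p 0.45). FRO2 differed by -2.77 (SE 0.168, adjusted p 3.79e-06), with 0.58, 0.99 and 0.84 and 8.94, 10.3 and 9.57 RPKM in rosettes and 12.04, 14.7 and 15.5 and 760.3, 792 and 760.3 in roots.

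MTPA2, a vacuolar zinc transporter, was at 5.6, 7.05 and 5.98 RPKM in control roots and 111, 116 and 102 in Fe-deficient roots and at 1.04, 0.79 and 0.9 and 1.31, 2.04 and 1.26 in rosettes, a difference of -3.53 (SE 0.198, adjusted p 6.8e-06). NAS1, a nicotianamine synthase, rose from 44.6, 50.6 and 48.4 to 217, 230.2 and 192 RPKM in roots, while the rosette groups at 29.1, 27.6 and 30.6 and 33.8, 33.2 and 35.7 did not overlap but were not called, and its difference was -1.91 (SE 0.0996, adjusted p 5.02e-07). The proton pump HA2 differed by -0.67 (SE 0.122, adjusted p 0.0191). The other 7 genes of the list were not tested because of low rosette levels. Among them FRU, the FIT gene, was at 0.903 ± 0.548 and 0.97 ± 0.278 RPKM in rosettes and went from 34.9 ± 2.76 to 146 ± 7.78 in roots, and the vacuolar iron transporter IREG2 went from 10.2 to 77.3 RPKM in roots.

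S-adenosylmethionine is the precursor of nicotianamine and ethylene and a methyl donor. Of 10 tested genes of its synthesis and of methionine salvage, 6 rose in roots, against 2.98% of all genes, and none was called in rosettes. The same number, 6, differed, all more positive in roots, against 2.13% of all genes. The 4 not called in roots were SAM-2, MTN1, ARD1 and ARD3, with root changes of 0.02, -0.06, 0.05 and 0.04. SAM1 was at 284, 290.4 and 263 RPKM in control roots and 1003, 1029 and 933 in Fe-deficient roots. Rosette values were 150.3, 153 and 155 and 151, 173 and 163 RPKM, which overlap, and the difference was -1.73 (SE 0.0843, adjusted p 1.34e-07). MAT3, a synthetase of the same family, differed by -0.54, and SAM-2 by -0.08 (adjusted p 0.705). In the salvage cycle, the kinase MTK went from 43.4 ± 3.96 to 119 ± 4.37 RPKM in roots and differed by -1.50 (SE 0.112, adjusted p 5.51e-06), and AT2G05830, AT5G53850 and ATARD2 differed by -1.32, -1.08 and -1.28. Of 10 tested ethylene genes, EFE and EBF2 differed, by 0.55 and -0.52, against 3.57% of all genes.

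Of the remaining leaders, AT3G07720, a kelch repeat gene, rose from 35.1, 28.5 and 29.5 to 736, 759 and 604 RPKM in roots, with 26, 21.1 and 23.2 and 25.9, 31.6 and 30.1 RPKM in rosettes, and had a difference of -4.16 (SE 0.154, adjusted p 9.61e-09). AT4G17680, an S-ribonuclease binding family gene, was at 0.34, 0.16 and 0.31 RPKM in control roots and 16.2, 20.8 and 13.9 in Fe-deficient ones, and at 6.35, 8.43 and 5.64 and 7.41, 6.99 and 5.79 in rosettes. Like CYP71B5 and COPT2, it was under 1 RPKM in every control root library and above 1 RPKM in every rosette library. These genes passed the filter in roots only through Fe-deficient libraries. The difference of AT4G17680 was -4.50 (SE 0.241, adjusted p 2.4e-07). FOLB1, a dihydroneopterin aldolase of folate synthesis, rose in roots from 2.06, 1.08 and 1.73 to 19.6, 26.9 and 23.3 RPKM and was not called in rosettes, at 11.9, 12.2 and 12.96 and 10.8, 8.43 and 9.31, a difference of -3.87 (SE 0.225, adjusted p 7.34e-06).

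Root rises chosen after their values were seen came from other functions. The 14-3-3 protein gene GRF11 rose from 4.57 ± 0.664 to 72.1 ± 7.51 RPKM in roots and was at 6.5 ± 1.16 and 8.46 ± 0.512 in rosettes, a difference of -3.48 (SE 0.181, adjusted p 2.4e-07). The nitrate transporter NRT2.6, the glucosyltransferase UGT72E1 and the germin-like gene GLP5 rose in roots by 2.57, 3.06 and 2.81, and none was called in rosettes. Their differences were -3.10 (SE 0.397, adjusted p 0.0017), -3.02 (SE 0.149, adjusted p 1.04e-06) and -2.85 (SE 0.247, adjusted p 0.000314).

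**Figure D3:**
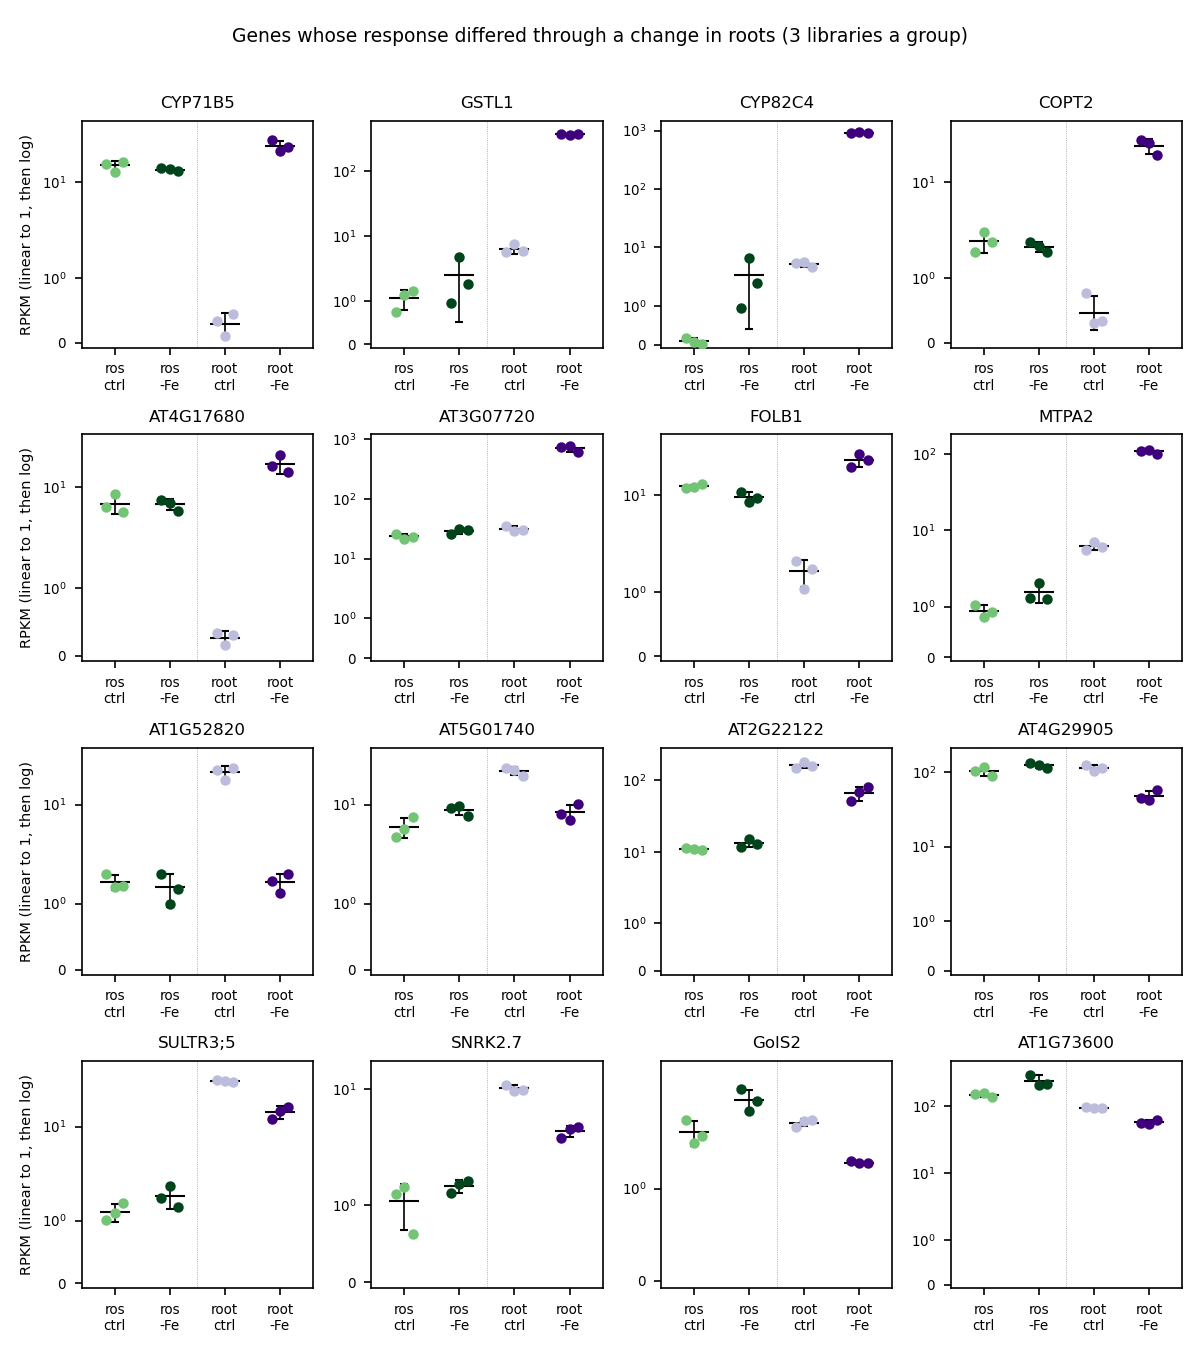
RPKM in each library for the 8 genes with the largest difference in each of the classes higher in roots (upper 8 panels) and lower in roots (lower 8), on an axis linear to 1 and logarithmic above. Points are libraries and bars the mean and SD of 3; the root groups are apart in every panel.

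Of the 99 genes lower in roots, 11 differed by at least 2-fold. Their number rested on single libraries: dropping root control replicate 2 or 3 left 29 and 48, and dropping Fe-deficient replicate 1, 2 or 3 left 46, 43 and 53. The largest difference was that of AT1G52820 (chr1:19669005-19670427, plus strand), a 2-oxoglutarate and Fe(II)-dependent oxygenase. It was at 22.5, 17.8 and 23.58 RPKM in control roots and 1.69, 1.27 and 1.97 in Fe-deficient roots. Rosettes held 1.98, 1.48 and 1.5 and 2, 0.99 and 1.39 RPKM, which overlap, and the difference was 3.19 (SE 0.267, adjusted p 2.56e-05).

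The next genes were of several functions. SULTR3;5, a sulfate transporter of the root vasculature, went from 31.2, 30.3 and 30.1 to 12, 14.8 and 16.3 RPKM in roots and was at 1.01, 1.2 and 1.53 and 1.72, 2.36 and 1.4 in rosettes, a difference of 1.48 (SE 0.221, adjusted p 0.00443). AT5G01740, a nuclear transport factor family gene, fell from 21.7 ± 2 to 8.38 ± 1.54 RPKM in roots and was not called in rosettes, at 5.94 ± 1.35 and 8.82 ± 0.997. The difference was 1.88 (SE 0.217, adjusted p 0.000301). The uncharacterised genes AT2G22122 and AT4G29905 differed by 1.54 and 1.52, the raffinose pathway enzyme GolS2 by 1.45 and the methyltransferase family gene AT1G73600 by 1.40. The kinase SNRK2.7 fell from 10.2 ± 0.713 to 4.37 ± 0.483 RPKM in roots. Its difference of 1.47 (SE 0.246, adjusted p 0.0119) lost its call with no filter (adjusted p 0.0662) and without rosette Fe-deficient replicates 2 (0.0572) or 3 (0.0564).

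Photosynthesis genes made up part of the differences carried by falls in roots. Of 32 tested photosystem and antenna genes, 14 fell in roots and 4 in rosettes, against 2.1% and 1.26% of all genes. The difference was called as more positive in rosettes for 3 (LHCA4, PSBO1 and PSBR), against 1.44% of all genes. It was called as more negative for 2 (PSAN and FED A), against 2.13%. PSBR was at 54.1, 41.99 and 47.8 RPKM in control roots and 29.1, 29.3 and 26.6 in Fe-deficient roots. In rosettes the values were 3300.5, 2990.4 and 3051 and 3559.6, 3849.6 and 3300.5, which overlap, and the difference was 0.94 (SE 0.129, adjusted p 0.000893). PSAN, a photosystem I subunit, fell from 1660 ± 42.5 to 580 ± 107 RPKM in rosettes, and in roots from 17.2 ± 1.72 to 10.8 ± 1.67, a difference of -0.88 (SE 0.182, adjusted p 0.0166). Among 20 genes of carbon fixation and photorespiration, RBCS1A, RCA and GGT1 differed, each more positive in rosettes, against 1.44% of all genes, and the median difference was 0.49. RBCS1A was listed only at 6504.34 or 7618.66 RPKM in rosettes, with every Fe-deficient library at 7618.66. LHCA4 was listed only at 2839.99 or 3069.5 RPKM there, and values recurred between libraries for PSBO1. The rosette spread of these genes is therefore poorly measured.

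RCA, Rubisco activase, was listed at 2616.5 RPKM in all 6 rosette libraries, a tie that leaves its rosette spread unmeasured. It fell from 20.6, 26.5 and 24.8 to 14.05, 14.5 and 11.5 RPKM in roots, and its difference of 0.82 (SE 0.136, adjusted p 0.0118) was lost without root control replicate 2 (adjusted p 0.0539) and with no filter (0.0943). The regulator of chloroplast genes GLK2 and the photoprotective antenna protein NPQ4, both chosen after their values were seen, differed by 0.98 (SE 0.173, adjusted p 0.00959) and 0.93 (SE 0.144, adjusted p 0.00404), with root changes of -0.78 and -0.61. Summed over the 8 rosette markers, root libraries held 162 to 174 RPKM in control and 119 to 151 in Fe-deficient plants, and RBCS1A and RCA are among those markers. MYB0 and FMA, the trichome and guard cell markers, lay under 0.1 RPKM in both root groups. The part of cell type proportions in the root falls was not tested, and fewer cells of a type cannot be told apart from less RNA per cell in whole organs.

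Nitrogen assimilation differed in its reductases. Of 15 tested genes of nitrate and ammonium, 4 had the more positive response in rosettes, against 1.44% of all genes. The more negative response was called for 1, against 2.13%. NIA1, a nitrate reductase, was at 391, 382 and 372 RPKM in control roots and 204, 210.1 and 193 in Fe-deficient roots, with 45.4, 43.9 and 49.2 and 45.8, 50.7 and 49.4 RPKM in rosettes. The rosette groups overlapped, and the difference was 0.99 (SE 0.0809, adjusted p 1.55e-05). NIR1, the nitrite reductase, fell in both organs, and its difference of 0.30 (SE 0.0745, adjusted p 0.0448) kept its call in 7 of 22 alternatives. The plastid glutamine synthetase GS2 rose in rosettes by 0.40 and differed by 0.30 (adjusted p 0.0315). ASN1, an asparagine synthetase, fell from 6.74 ± 1.92 to 2.41 ± 0.219 RPKM in rosettes and was at 47.8 ± 6.29 and 48.6 ± 2.8 in roots, differing by -1.31 (SE 0.218, adjusted p 0.0102) that was lost with no filter (adjusted p 0.0573).

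In sulfate assimilation, 3 of 11 tested genes differed, all more negative in rosettes, against 2.13% of all genes. The sulfite reductase SIR, a sirohaem enzyme, changed by -1.18 in rosettes and -0.64 in roots, differing by -0.54 (SE 0.0952, adjusted p 0.0134). APR1, which reduces activated sulfate, rose in roots from 107 ± 8.29 to 156 ± 7.38 RPKM and differed by -0.51 (SE 0.11, adjusted p 0.0211), and the transporter SULTR2;1 differed by -0.41. PHO1;H1 and FAH1, chosen after their values were seen, changed in roots by -1.29 and -1.20 with differences of 1.04 and 0.92. With no filter, neither was called (adjusted p 0.0528 and 0.118), and FAH1 was lost without any 1 root control replicate or Fe-deficient replicate 1 (adjusted p 0.0673 to 0.0834).

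Opposite changes were called in both organs for 8 genes, 0.0452% of those tested. NIA2 (AT1G37130), the other nitrate reductase gene, was at 359, 341 and 361 RPKM in control rosettes and 433, 447 and 495 in Fe-deficient rosettes, and at 195, 196 and 204 and 152, 148 and 137 in roots. It rose in rosettes and fell in roots with no overlap in either, a difference of 0.82 (SE 0.0835, adjusted p 8.7e-05). ASN2, an asparagine synthetase, moved the same way, from 108, 104 and 105 to 140.3, 132 and 131 RPKM in rosettes, and in roots from 42.2, 40.7 and 41.4 to 30.7, 31.7 and 31.3, a difference of 0.75 (SE 0.064, adjusted p 1.56e-05).

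The aquaporin PIP1;5 and the early nodulin-like gene ENODL2 also rose in rosettes and fell in roots. PIP1;5 was at 224, 227 and 215 and 307, 275 and 278 RPKM in rosettes and 120.3, 137 and 120.4 and 85.4, 95.5 and 77.6 in roots. Their differences were 0.91 and 0.85. The other 4 fell in rosettes and rose in roots. AT1G80360, a pyridoxal phosphate-dependent transferase family gene, went from 47.2, 43.4 and 48.2 to 23.7, 28.8 and 25.6 RPKM in rosettes, and in roots from 72.8, 79.9 and 77.2 to 151, 151 and 133, a difference of -1.73 (SE 0.107, adjusted p 1.32e-06). AT4G25030, annotated as a serine/threonine kinase, differed by -2.40. AT3G54880, a zinc finger gene, differed by -1.48 and shares 180 identical bases with MRH2.

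MIR171c (AT1G62035) is the precursor of a microRNA that targets HAM transcription factors of the GRAS family. The precursor was at 2.06, 2.06 and 1.24 RPKM in control rosettes, was listed at 0.41 RPKM in each Fe-deficient rosette library, and rose from 3.6, 4.1 and 3.23 to 7.86, 8.78 and 8.53 RPKM in roots. MIR398b is listed at the same 0.41 RPKM in all 6 rosette libraries, so the value may be the lowest the table gives for such a precursor, and the level and spread in Fe-deficient rosettes are unmeasured. The fitted difference of -2.41 (SE 0.207, adjusted p 7.78e-05) rests on that value, and was -3.04 with a pseudocount of 0.1 and -1.99 with a pseudocount of 1. These libraries measure polyadenylated precursor RNA and not the mature microRNA. The mature strands (RefSeq annotation of TAIR10.1, minus strand) lie at chr1:22930095-22930115 for miR171c-3p and chr1:22930157-22930177 for miR171c-5p and are shown with their seed, bases 2 to 8, in capitals.
miR171c-3p: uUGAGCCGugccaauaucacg
miR171c-5p: aGAUAUUGgugcgguucaauc
The 3p sequence is shared with 1 other locus, MIR171b. The best complementary sites in the coding exons of its targets, each with 18 of 21 bases paired to the 3p strand, are shown with paired bases in capitals.
HAM1: aGgGATATTGGCgCGGCTCAA
HAM2: aGgGATATTGGCgCGGCTCAA
HAM3: gGgGATATTGGCgCGGCTCAA
They lie at chr2:18619131-18619151, chr3:22411547-22411567 and chr4:58414-58434, all on the minus strand. The target transcripts differed by -0.15, 0.06 and 0.32 between organs, none called (adjusted p 0.692, 0.852 and 0.37).

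**Figure D4:**
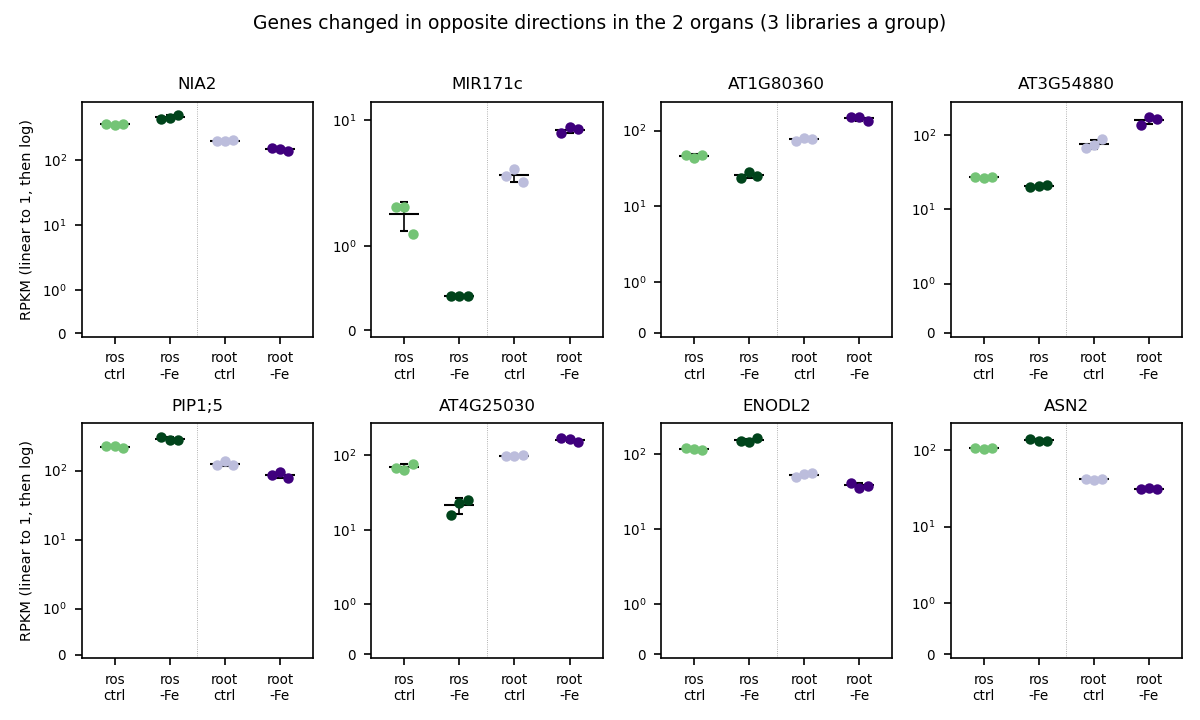
RPKM in each library for the 8 genes called in both organs with opposite signs, on an axis linear to 1 and logarithmic above. Points are libraries and bars the mean and SD of 3; NIA2, PIP1;5, ENODL2 and ASN2 rise in rosettes (ros) and fall in roots, and the other 4 do the reverse.

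The count of 8 depended on single rosette libraries. Dropping rosette control replicate 1 left 0 genes, dropping replicate 2 of either rosette group left 2, and dropping replicate 3 of either left 4. The differences themselves kept their call for all 8 genes in every alternative that could be run, and the calls lost without a rosette library were those of the rosette change. Among the counts of genes carried by rosettes, the class higher in rosettes held 40 genes once control replicate 1 was dropped and 39 once Fe-deficient replicate 3 was, and the class lower in rosettes to 49, 52 and 56 without control replicates 1, 2 and 3.

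Several further lists held no called difference among their tested genes: jasmonate (12 genes), salicylate (6), camalexin (5), glucosinolates (19), Casparian strip and suberin (9), flavonoids (5), heat shock (6), hypoxia (8), and sugar transport with senescence (6). Of the glucosinolate genes, 6 rose in roots, and of the hypoxia genes 4, against 2.98% of all genes, with median differences of 0.09 and -0.23. The median difference was 0.74 for flavonoids, 0.35 for jasmonate, 0.30 for salicylate and 0.15 for camalexin. It was 0.14 for Casparian strip and suberin, -0.06 for heat shock and 0.02 for sugar transport with senescence. Among 20 clock genes, GI was called, and among 16 phosphate starvation genes, PPCK1. Of 7 tested genes of zinc transport, IRT3 differed, and of 12 of cell division, CYC1BAT. With 3.57% of all genes called, 1 gene in a list of this size is near the background. A missed threshold does not show that the organs responded alike, and most root hair genes (14 of 15) were not tested because of low rosette levels.

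**Figure D5:**
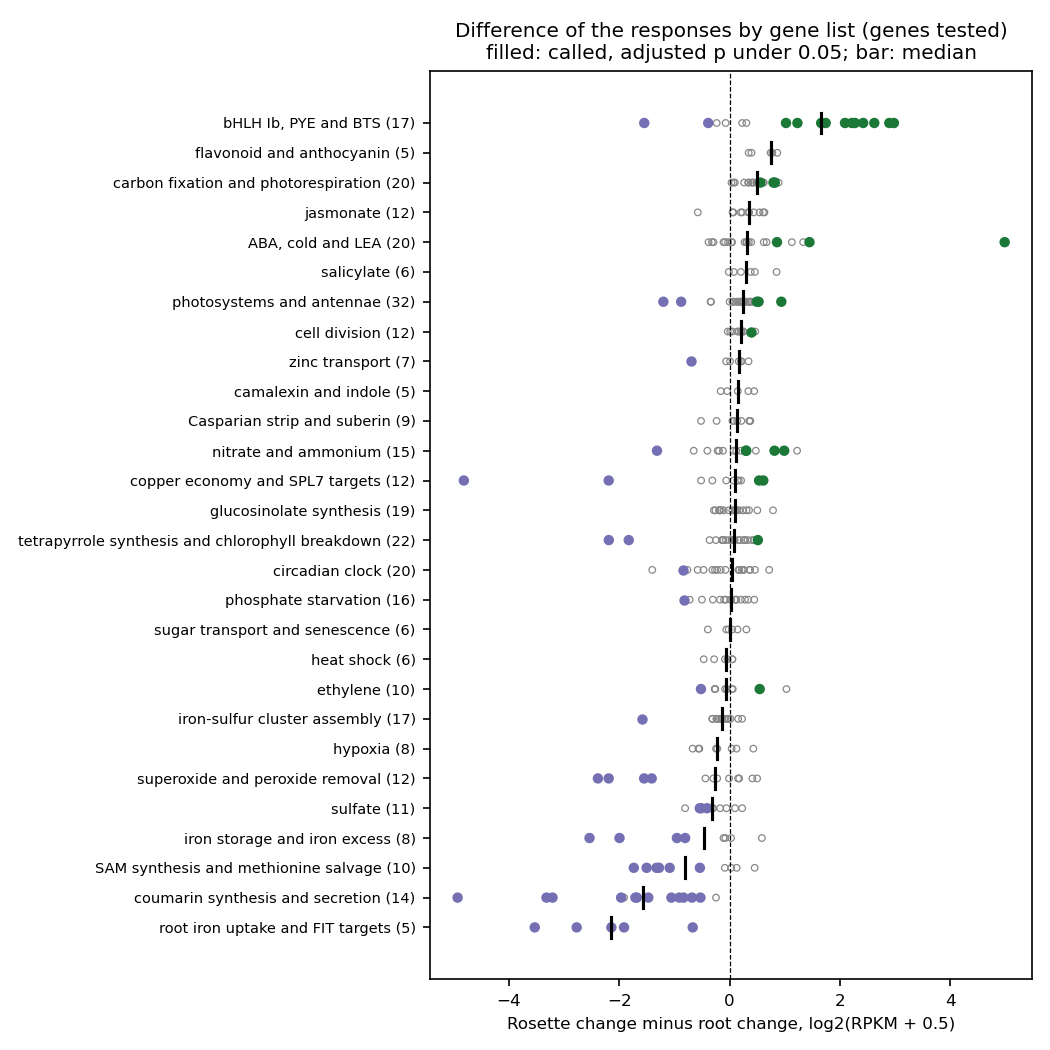
Difference between the rosette and the root change, on the log2(RPKM + 0.5) scale, for each tested gene of 28 gene lists, ordered by their median (bar). Filled points were called, green where more positive and purple where more negative in rosettes; the lists of root iron uptake, coumarins and S-adenosylmethionine lie to the left and that of bHLH Ib, PYE and BTS to the right.

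Some iron genes were not tested because their mean was under 1 RPKM in 1 organ. NEET, an iron-sulfur protein gene, was at 183, 164 and 165 RPKM in control rosettes and 3.87, 4.72 and 3.01 in Fe-deficient rosettes, and was listed at 0.11 RPKM in every root library. The transporter YSL1 went from 35.3 ± 1.86 to 7.05 ± 1.73 RPKM in rosettes and stayed under 1 RPKM in roots. In the other organ, the ZIP family transporter ZIP2 went from 12.3 ± 1.04 to 2.09 ± 0.326 RPKM in roots and stayed under 1 RPKM in rosettes. FER2 was at 7.92 RPKM in control and 1.89 in Fe-deficient roots, with a mean under 1 RPKM in rosettes.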

How the data were processed

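Polyadenylated RNA of control and Fe-deficient rosettes and roots was sequenced, 3 libraries a group. The submitters' processing notes name bcl2fastq 1.8.4, Trimmomatic 0.35, Bowtie2 2.0.6, edgeR 3.12.1, limma 3.26.9 and build TAIR10, with no roles. The unit is not written in the file headers: the values deposited by the authors behave as RPKM, since after multiplication by transcript length a rosette library totals 1128597 to 1131654 and a root library 1125582 to 1127821, with distributions equalised within an organ. The p-value and log2 fold change of the authors' deposited comparisons were not used. Counting and strand are not given in the sources used here, and neither is depth, so no counting interval is given; the spread of 3 libraries is the error.

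Of 33611 rows, 4 transgene rows, at most at 0.02 RPKM, were left out. Each organ was fitted alone with limma 3.58.1 in R 4.3.3 on log2(RPKM + 0.5), by eBayes with a trend, two-sided. The root change was subtracted from the rosette change, the 2 standard errors were combined as for independent fits, and degrees of freedom followed Satterthwaite. The p-values of 17680 genes were adjusted by Benjamini-Hochberg, and a difference was called at an adjusted p under 0.05. This fit was tested on simulated data. It called 32% of simulated log2 differences of 0.5, 80% of those of 1, 94% of 2 and 100% of 4. Of 163 calls, 10 were of unchanged genes. Noise was drawn with the same spread in both organs for each gene, unlike the separate fits of the real data.

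The gene lists and the members described were chosen with earlier results of these data known. Named genes are the 8 with the largest difference in each of 4 classes, genes with opposite changes, and list members; others are said to be chosen after their values were seen. Positions and promoters, the 250 bases before a gene start, are from TAIR10.1, matched for 32835 of 33607 loci. Pseudocount, filter, model options, a replicate block and each library left out were tried as alternatives. Replicate numbers were not taken as pairs.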

Additional observations from a re-analysis of the deposited data

Results flagged for a closer look

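The differing response of the organs was itself singled out by the test of the difference: 632 genes passed it. Among them, 8 genes were called in both organs with opposite signs, and these are the results most worth another look. On the log2 scale the rosette change minus the root change was 0.82 for NIA2, 0.91 for PIP1;5, 0.85 for ENODL2 and 0.75 for ASN2, which rose in rosettes and fell in roots. It was -2.41 for MIR171c, -2.40 for AT4G25030, -1.73 for AT1G80360 and -1.48 for AT3G54880, which fell in rosettes and rose in roots. The MIR171c value of Fe-deficient rosettes was a tie of 0.41 RPKM, so its level and spread there are unmeasured. All 3 Fe-deficient rosette libraries lay on the stated side of all 3 control libraries for each of the 8 genes, and so did the root libraries. That separation is no added support, since the 8 genes were picked by calls on the same libraries. Groups lay apart for 21.4% of all tested genes in rosettes and 25.9% in roots. With 3 libraries a group, single libraries were not tested as outliers.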

How the results depend on the processing

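The 22 alternatives included 12 that left out a library. No direction reversed. Of the 38 genes with the largest class differences or opposite changes, 36 kept their call in every alternative that could be run. CYP82C4 kept it in 19 of 21 and SNRK2.7 in 18 of 21. Among list members outside the 38, NIR1 kept its call in 7 of 22, CAT3 in 17 of 22 and RCA in 20 of 22. IRT1 and ASN1 kept it in 20 of 21. Of genes chosen after their values were seen, PHO1;H1 kept it in 20 of 21 and FAH1 in 17 of 22. The 632 called genes became 457 to 693 when a library was left out, and 495 (no filter) to 823 (array weights) otherwise; between 56.5% (no filter) and 99.2% (pseudocount of 1) of the 632 were called again. Leaving out a library gave 154 to 289 genes more positive in rosettes and 0 to 8 changed in opposite directions. It gave 39 to 61 higher in rosettes, 49 to 82 lower in rosettes and 29 to 104 lower in roots. Each organ was fitted alone, so only its own libraries can move its count of changed genes. Leaving out a rosette library gave 152 to 301 changed in rosettes, against 341 with all libraries. Leaving out a root library gave 378 to 777 changed in roots, against 898. With no filter, 54 genes were lower in rosettes, 51 lower in roots and 2 opposite. A fit of all 12 libraries gave 517 changed in rosettes, 1383 in roots and 19 opposite. Without the trend 5 were opposite, and array weights gave 518 changed in rosettes. The cause of these moves was not tested. A replicate block gave 736 differences, 178 rosette changes and 1 opposite gene. Deviations from group means in same-numbered control and Fe-deficient libraries correlated at 0.124, -0.169 and 0.307 in rosettes. In roots they correlated at -0.001, -0.033 and 0.118. Between organs, same-numbered libraries gave -0.128 to 0.165. With 3 libraries a group, these values cannot settle whether the numbers pair the samples. Depth is unknown, and 31 of the 632 genes have a group mean under 1 RPKM, against 358 of all 17680 tested.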
